A study of Mus musculus with 33 samples.

Results

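*Nanog* and the 5 genes that lie around it on mouse chromosome 6, *Apobec1*, *Gdf3* and *Dppa3* on one side and *Slc2a3* and *Foxj2* on the other, were followed in embryonic stem cells (ESCs) and during embryoid body (EB) differentiation. They were taken from the deposited table by gene symbol and are 6 of its 16336 genes. The study asked what becomes of differentiation when a stretch of chromatin carrying tri-methylated lysine 9 of histone H3 (H3K9me3), a mark of repressed chromatin, is removed from the *Nanog* locus. The 3 lines were E14Tg2a, a wild-type ESC line of the 129/Ola strain, and ΔK9.1 and ΔK9.2, a pair of independent, karyotypically normal clones of E14Tg2a in which CRISPR/Cas9 had deleted the H3K9me3 region between the *Nanog* enhancer and promoter on both alleles. ΔK9.1 and ΔK9.2 are 1 clone each, so that a property of a clone and an effect of the deletion can be told apart only as far as both clones share it. All lines were grown on gelatine in serum with leukaemia inhibitory factor (LIF) for day 0, without any other agent, and EBs were made in serum without LIF, first as floating aggregates up to day 4 and then replated and sampled on days 6 and 8. Each line had 3 replicates on days 0, 4 and 8 and 2 on day 6 (replicates 2 and 3), 33 libraries in all. Levels are in TPM, the share of a transcript among all transcripts of a library, which are corrected for transcript length and relative to all transcripts of a library.

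*Nanog* encodes a homeodomain transcription factor that holds ESCs in the pluripotent state and is switched off when they differentiate. Its locus is crowded with genes active in early embryos and germ cells. *Gdf3* encodes a secreted ligand of the TGFβ family that signals like Nodal, and *Dppa3* (also Stella) encodes a maternal and germ-line protein that protects DNA methylation in the early embryo. *Apobec1* encodes the cytidine deaminase that edits *Apob* mRNA, *Slc2a3* the glucose transporter GLUT3, and *Foxj2* a forkhead transcription factor.

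In mm10 the 6 genes stretched over 268 kb, from 122577792 to 122845366 of chromosome 6. *Apobec1* (122577792 to 122602444, minus strand) and *Gdf3* (122605403 to 122610087, minus strand) started 105 and 97.4 kb upstream of the *Nanog* start, and *Dppa3* (122626410 to 122630272, plus strand) ended 77.2 kb upstream of it. *Nanog* itself spans 122707489 to 122714633 on the plus strand. Downstream, *Slc2a3* (122727809 to 122801640, minus strand) ends 13.2 kb from *Nanog* but starts 94.2 kb away, and *Foxj2* (122819914 to 122845366, plus strand) starts 112.4 kb away. RefSeq promoter windows (GRCm38.p6, the assembly of mm10) were matched for 3 of the 6 genes and are shown because the deletion lies just before one of them and the other two belong to the most distant neighbours on either side. Each window runs 5′ to 3′ on the strand of its gene, from 250 bases before the RefSeq start to 30 bases after it. The windows lie at chr6:122602415-122602694 for *Apobec1*, chr6:122707239-122707518 for *Nanog* and chr6:122819934-122820213 for *Foxj2*. The RefSeq start of *Foxj2*, 122820184, is downstream of the gene start given above (122819914), so the *Foxj2* window lies inside the gene as placed there. Capitals mark matches on either strand to the octamer core ATGCAAA, recognised by POU5F1, to the SOX motif ACAATG, and to TGCCGC, the motif of the zinc finger protein ZFP57, none of which overlapped another.
Apobec1: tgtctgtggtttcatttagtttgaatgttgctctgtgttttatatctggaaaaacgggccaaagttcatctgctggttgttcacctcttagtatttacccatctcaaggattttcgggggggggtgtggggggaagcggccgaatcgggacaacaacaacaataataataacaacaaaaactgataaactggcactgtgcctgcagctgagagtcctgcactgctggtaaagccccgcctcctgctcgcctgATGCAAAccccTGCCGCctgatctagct
Nanog: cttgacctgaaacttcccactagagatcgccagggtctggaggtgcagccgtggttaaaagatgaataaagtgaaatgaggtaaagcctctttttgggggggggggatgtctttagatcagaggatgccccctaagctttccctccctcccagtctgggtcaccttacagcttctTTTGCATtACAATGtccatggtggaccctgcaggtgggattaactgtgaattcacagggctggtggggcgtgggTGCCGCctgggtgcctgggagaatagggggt
Foxj2: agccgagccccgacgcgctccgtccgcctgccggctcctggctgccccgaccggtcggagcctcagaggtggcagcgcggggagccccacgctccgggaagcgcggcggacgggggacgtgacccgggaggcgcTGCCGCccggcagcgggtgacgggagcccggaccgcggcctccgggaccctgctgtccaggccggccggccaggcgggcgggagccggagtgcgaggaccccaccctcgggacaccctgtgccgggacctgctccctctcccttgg

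RefSeq gives a second *Nanog* start, at 122707565, whose window overlaps the one shown. Counted from the RefSeq start of the window shown (122707489), the *Nanog* window held an octamer core at -75, a SOX motif next to it at -67 and a ZFP57 motif at -1, which lie at -151, -143 and -77 from the second start. The *Apobec1* window also held an octamer core, at 3, and a ZFP57 motif at 14. The *Foxj2* window held only a ZFP57 motif, at -116 from its RefSeq start. Over 32851 RefSeq promoter windows of 300 bases, 4.63% held the octamer core, 12.6% the SOX motif and 11.6% the ZFP57 motif. The ESRRB half-site AAGGTCA, found in 4.72% of windows, was in none of the 3. The *Foxj2* window was the richest in G and C, at 78.3% with 37 CpG, beside 54.3% with 4 CpG at *Nanog*, 48.3% with 9 CpG at *Apobec1* and a median of 52.7% over all windows, each taken over its full 300 bases. These matches are descriptions of the letters and were not tied to binding or to the levels below.

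The undifferentiated cells carried the markers of their label, with the 6 ESC markers (*Pou5f1*, *Sox2*, *Esrrb*, *Zfp42*, *Klf4* and *Tdgf1*) summing to 3140 to 3970 TPM in the 9 libraries of day 0. No 2 libraries were identical, between 12903 and 13905 genes reached 1 TPM in a library, and since TPM hide how many reads were counted, the exact depth of each library is unknown here. Differences are given on the log2(TPM + 1) scale, which understates changes of low genes, with the standard error (SE) and the adjusted p (Benjamini-Hochberg, over all genes) of limma fitted to the 33 libraries. A gene was called at an adjusted p under 0.05 with a change above 1 in either direction, and a difference between the courses of the clones and of E14Tg2a at an adjusted p under 0.05. Annotated copies of *Nanog* and *Dppa3* elsewhere in the genome are not among the listed genes, so how reads were shared between these genes and their copies is uncertain.

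*Nanog* was high in every line on day 0, was lower on days 4 and 6, and on day 8 was lower in E14Tg2a than in the ΔK9 clones. In E14Tg2a it stood at 326, 338 and 368 TPM on day 0 (replicates 1, 2 and 3), 183, 207 and 189 TPM on day 4, 122 and 140.5 TPM on day 6, and 34.6, 23.7 and 22.0 TPM on day 8. In ΔK9.1 the same libraries held 456.5, 460.4 and 486 TPM, then 184, 213 and 205 TPM, 188 and 145 TPM, and 70.6, 49.3 and 177 TPM. In ΔK9.2 they held 412, 439 and 426 TPM, then 208, 234 and 190.3 TPM, 179 and 172 TPM, and 118.5, 69.85 and 126 TPM. The clone libraries all lay above the E14Tg2a libraries on days 0, 6 and 8, while on day 4 both ranges ran from about the same lowest value and overlapped. Ranked by level among all genes, the *Nanog* mean of E14Tg2a moved from the percentile 97.6 on day 0 to 68.6 on day 8, and those of ΔK9.1 and ΔK9.2 to 91.1 and 91.7. ΔK9.1 replicate 3 stood apart on day 8, with the highest *Nanog* of the day.

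**Figure D1:**
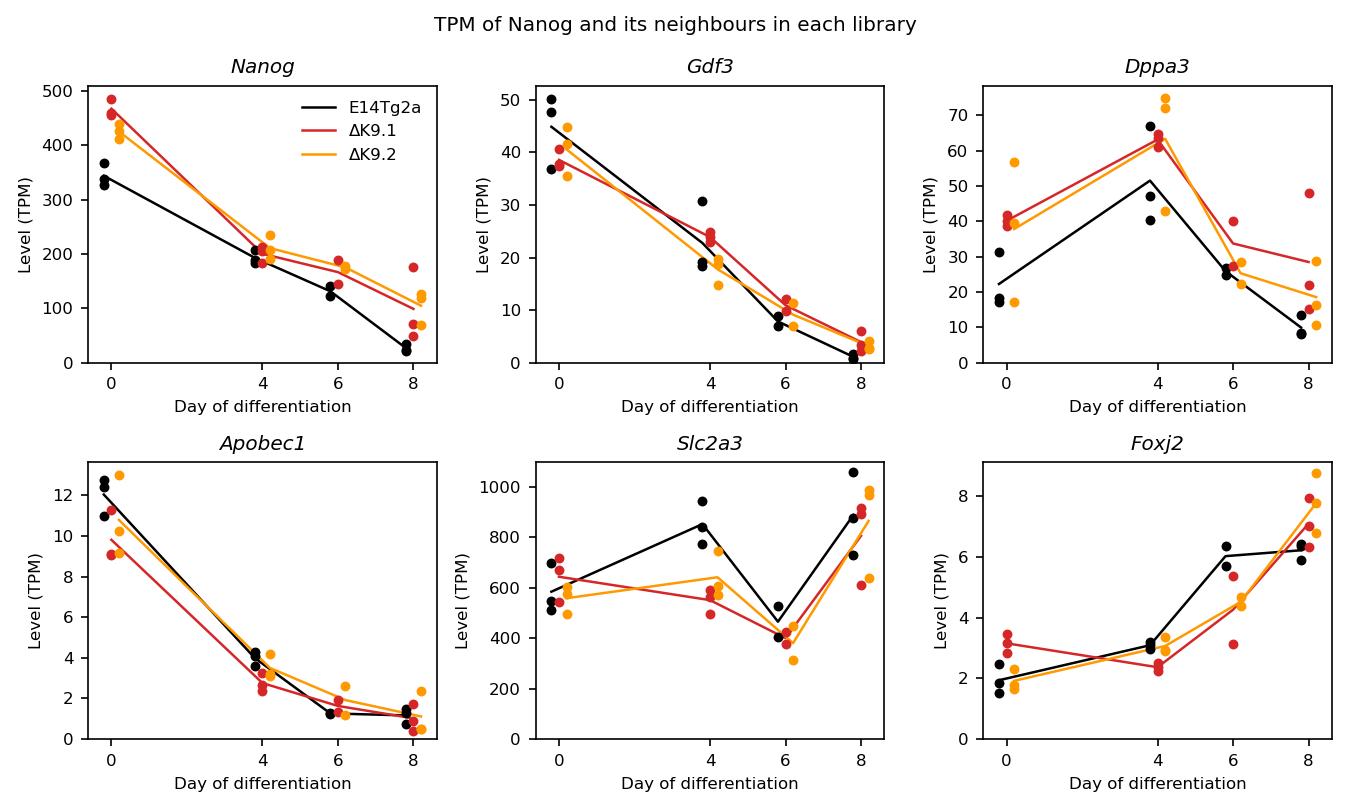
Level (TPM, linear axis from 0) of each gene in every library against the day of differentiation; points are libraries, lines join the group means, E14Tg2a in black, ΔK9.1 in red and ΔK9.2 in orange. *Nanog*, *Gdf3* and *Apobec1* decline in all 3 lines, *Dppa3* has its highest means on day 4 and *Slc2a3* its lowest on day 6. *Foxj2* has its highest means on day 8, with a lower mean on day 4 than on day 0 in ΔK9.1. On day 8 the clones lie above E14Tg2a for *Nanog* (49.3 to 177 against 22.0 to 34.6 TPM).

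On day 8 the mean of the clones exceeded E14Tg2a by 1.79 for *Nanog* (SE 0.23, limma adjusted p = 1.28e-05). This is a 3.45-fold difference, with 1.66 in ΔK9.1 (SE 0.27) and 1.91 in ΔK9.2 (SE 0.27). In this ranking of all differences of the day, 0.159% of genes stood higher. The corresponding values were 0.38 on day 0 (adjusted p = 0.435), 0.09 on day 4 (adjusted p = 0.922) and 0.37 on day 6 (adjusted p = 0.561), none of them called. In a fit of the 9 libraries of day 0 and all genes the difference of 0.38 had an adjusted p of 0.013, under the required change of 1. Fitted to the 9 libraries of day 0 alone, where the between-library spread was smaller, the difference was 0.44 in ΔK9.1 (SE 0.07, adjusted p = 0.00424) and 0.31 in ΔK9.2 (SE 0.07, adjusted p = 0.153). *Nanog* thus did not pass in both clones. Once the replicate number entered as a block, the adjusted p in ΔK9.2 was 0.0402 and it did. When only the 9 libraries of day 8 were fitted, the difference of 1.79 was no longer called (adjusted p = 0.0575). The day 8 values moved with the markers of undifferentiated cells, as given further on, and in RNA from bulk cultures fewer cells of a type and less RNA per cell cannot be told apart.

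The neighbours were counted in the same way. Beside the 0.386% of all genes called on day 0, 0.796% on day 4 and 1.62% on day 6 between the clones and E14Tg2a, 0 of the 6 genes were called on any of these days. On day 8, when 4.24% of all genes were called, 3 of the 6 were, all of them higher in the clones: *Nanog*, *Gdf3* and *Dppa3*. By the rule for small changes on day 0 (adjusted p under 0.05 and more than 0.3 in the same direction in both clones), which 0.0758% of genes met, 0 of the 6 passed. With the replicate number as a block 145 genes met this rule, and 1 of the 6, *Nanog*, was among them. The number of genes whose clone libraries all lay on the same side of all E14Tg2a libraries was 1 of 6 on day 0 (*Nanog*, against 7.92% of all genes), 1 on day 4 (*Slc2a3*, 7.58%), 2 on day 6 (*Nanog* and *Foxj2*, 32.4%) and 2 on day 8 (*Nanog* and *Gdf3*, 13.4%).

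**Figure D2:**
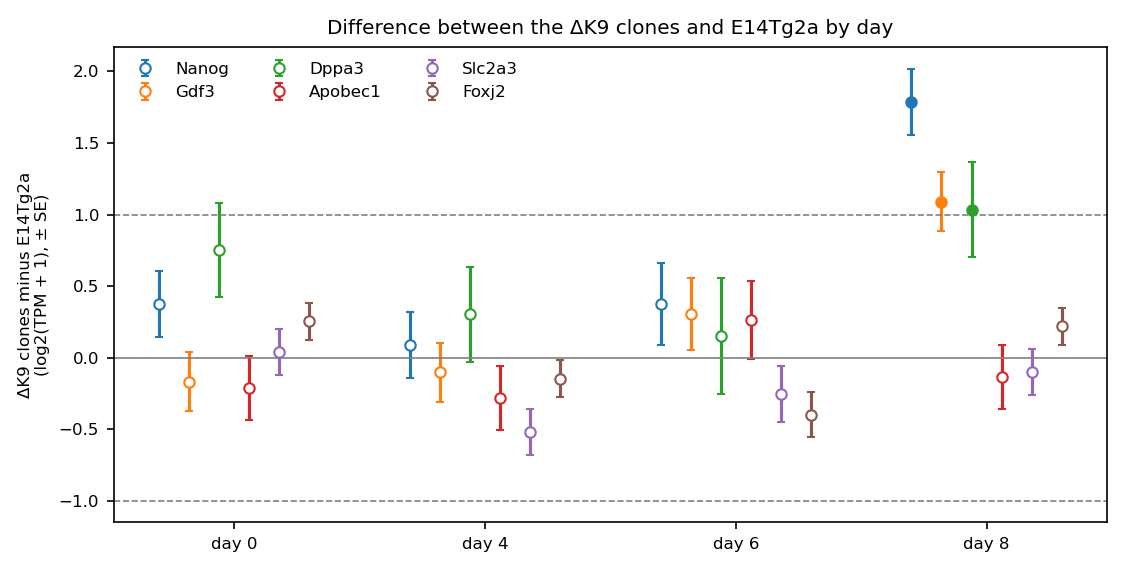
Difference between the mean of both ΔK9 clones and E14Tg2a on the log2(TPM + 1) scale (vertical axis) for the 6 genes on each day (horizontal axis); points are limma estimates, bars are ± 1 SE, filled points were called, and dashed lines mark a change of 1. Only the *Nanog*, *Gdf3* and *Dppa3* points of day 8 (1.79, 1.09 and 1.04) are filled among the 24 points shown.

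*Gdf3*, the ligand nearest in course to *Nanog*, had lost more of its level by day 8 in E14Tg2a than any of the other 5 genes, and less in either clone than in E14Tg2a. In E14Tg2a it was at 36.8, 50.2 and 47.7 TPM on day 0, 18.4, 30.8 and 19.2 TPM on day 4, 8.79 and 6.87 TPM on day 6, and 0.907, 1.66 and 0.684 TPM on day 8. In ΔK9.1 it was at 37.8, 40.6 and 37.4 TPM, then 23.9, 22.9 and 24.9 TPM, 9.755 and 12.1 TPM, and 2.22, 3.40 and 6.07 TPM. In ΔK9.2 it was at 35.5, 41.55 and 44.8 TPM, then 19.75, 18.8 and 14.8 TPM, 11.3 and 6.97 TPM, and 2.53, 2.72 and 4.15 TPM. Both clones overlapped E14Tg2a on days 0 and 4, on day 6 ΔK9.2 did while ΔK9.1 lay above it, and on day 8 every clone library lay above every E14Tg2a library. The day 8 difference was 1.09 (SE 0.21, adjusted p = 0.000582), 2.13-fold, with 1.19 in ΔK9.1 (adjusted p = 0.0022) and 0.996 in ΔK9.2 (adjusted p = 0.00514), the latter just under the required change of 1. Without E14Tg2a replicate 3 or ΔK9.1 replicate 3 of day 8 it came to 0.95 and 0.94, under 1 with adjusted p = 0.00802 and 0.00123, and in the fit of day 8 alone the adjusted p was 0.0766. On day 0, unlike *Nanog*, *Gdf3* stood at -0.17 in the clones (SE 0.21, adjusted p = 0.755).

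*Dppa3* had its highest mean on day 4 in every line and was lower afterwards. E14Tg2a held 31.3, 17.2 and 18.3 TPM on day 0, 67.1, 47.2 and 40.3 TPM on day 4, 24.9 and 26.9 TPM on day 6, and 8.27, 13.5 and 8.06 TPM on day 8. ΔK9.1 held 40.2, 41.7 and 38.6 TPM, then 61.1, 63.6 and 64.9 TPM, 27.3 and 40.2 TPM, and 22.1, 15.25 and 48.1 TPM. ΔK9.2 held 17.05, 39.6 and 56.8 TPM, then 72.2, 75 and 43 TPM, 28.4 and 22.2 TPM, and 10.5, 16.25 and 28.9 TPM. ΔK9.2 overlapped E14Tg2a on all 4 days, whereas ΔK9.1 overlapped it on day 4 and lay above it on days 0, 6 and 8, and the libraries of ΔK9.2 on day 0 were more scattered than those of either other line. The rise to day 4 was called in E14Tg2a (1.19, SE 0.38, adjusted p = 0.0219) but was 0.64 in ΔK9.1 (adjusted p = 0.215) and 0.84 in ΔK9.2 (adjusted p = 0.0921), and the difference of these courses was -0.45 (SE 0.47, adjusted p = 0.827). The E14Tg2a call was lost without replicate 1 of day 4 (0.99, adjusted p = 0.0998) and without replicate 2 (1.04, adjusted p = 0.0924) or 3 of day 0 (1.09, adjusted p = 0.0745), and in ΔK9.2 the rise was called without replicate 3 of day 0 (1.21, adjusted p = 0.0256).

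On day 8 *Dppa3* was higher in the clones by 1.04 (SE 0.33, adjusted p = 0.0281), 2.05-fold, with 1.31 in ΔK9.1 (adjusted p = 0.0261) and 0.76 in ΔK9.2 (adjusted p = 0.183). This call was the least firm of the 3. It was lost without E14Tg2a replicate 1 (0.93, adjusted p = 0.0877), E14Tg2a replicate 3 (0.92, adjusted p = 0.116), ΔK9.1 replicate 3 (0.81, adjusted p = 0.0716) or ΔK9.2 replicate 3 (0.85, adjusted p = 0.0649) of that day, and in the fit of day 8 alone (adjusted p = 0.183). *Dppa3* also stood at 0.75 in the clones on day 0 (SE 0.33, adjusted p = 0.222), so its difference of courses to day 8 was 0.28 (SE 0.47, adjusted p = 0.776).

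*Apobec1*, which starts next to *Gdf3*, fell early in all 3 lines, to 9.68%, 10.4% and 10.3% of its day 0 mean in E14Tg2a, ΔK9.1 and ΔK9.2 on day 8. In E14Tg2a its values were 10.97, 12.7 and 12.4 TPM on day 0, 4.11, 3.59 and 4.27 TPM on day 4, 1.28 and 1.25 TPM on day 6, and 0.743, 1.495 and 1.26 TPM on day 8. In ΔK9.1 they were 11.3, 9.04 and 9.105 TPM, then 2.685, 2.36 and 3.23 TPM, 1.33 and 1.94 TPM, and 0.408, 0.902 and 1.745 TPM. In ΔK9.2 they were 13.0, 10.2 and 9.16 TPM, then 4.19, 3.09 and 3.23 TPM, 2.63 and 1.204 TPM, and 0.487, 0.488 and 2.365 TPM. ΔK9.2 overlapped E14Tg2a on every day and ΔK9.1 did so on days 0 and 8, lying below it on day 4 and above it on day 6, and on day 8 the lowest and the highest value both came from clones. By day 8 the change from day 0 was -2.60 in E14Tg2a (SE 0.26, adjusted p = 5.15e-09), -2.47 in ΔK9.1 (adjusted p = 2.6e-08) and -2.58 in ΔK9.2 (adjusted p = 8.95e-09). The clones stood at -0.14 from E14Tg2a on day 8 (SE 0.22, adjusted p = 0.733), the difference of courses was 0.08 (SE 0.32, adjusted p = 0.921), and 64.9% of all genes had a higher day 8 difference.

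*Slc2a3*, the transporter gene that ends nearest to *Nanog*, was the most abundant of the 6, with its lowest mean on day 6 and its highest on day 8 in ΔK9.1 and ΔK9.2 and about equal highs on days 4 and 8 in E14Tg2a. E14Tg2a held 698, 546 and 511 TPM on day 0, 945, 774 and 840.2 TPM on day 4, 404.5 and 527 TPM on day 6, and 1060, 732 and 876 TPM on day 8. ΔK9.1 held 719, 669 and 545 TPM, then 593, 497 and 564 TPM, 377 and 424 TPM, and 894, 610.3 and 915 TPM. ΔK9.2 held 577.5, 604 and 495 TPM, then 745, 573 and 608 TPM, 313 and 448 TPM, and 639, 988 and 969.6 TPM. On day 4 the 6 clone libraries all lay below the 3 of E14Tg2a, and on the other days the lines overlapped. The day 4 difference of -0.52 (SE 0.16) did not pass (adjusted p = 0.0828), with -0.63 in ΔK9.1 (adjusted p = 0.0638) and -0.41 in ΔK9.2 (adjusted p = 0.428). The median of all genes stood at -0.06 in that comparison, and after rescaling of the libraries the value was -0.43 (adjusted p = 0.173), while with the replicate block its adjusted p was 0.042 at the same size, under the required change of 1. From day 4 to day 6 *Slc2a3* changed by -0.88 in E14Tg2a (SE 0.21, adjusted p = 0.00336), -0.46 in ΔK9.1 (adjusted p = 0.125) and -0.77 in ΔK9.2 (adjusted p = 0.00713), all short of a change of 1. The same step of *Nanog* was -0.55, -0.27 and -0.26, not called either. From day 6 to day 8 *Slc2a3* was higher in ΔK9.2 by 1.18 (SE 0.21, adjusted p = 0.000676), beside 0.93 in E14Tg2a (adjusted p = 0.00205) and 0.99 in ΔK9.1 (adjusted p = 0.0026), both under the required change of 1.

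*Foxj2*, the gene farthest downstream, had low levels and a higher mean on day 8 than on day 0 in every line, though not at every step. In ΔK9.1 its mean was lower on day 4 (2.37 TPM) than on day 0 (3.16 TPM). In E14Tg2a it changed by only 0.04 from day 6 to day 8 (adjusted p = 0.904). E14Tg2a held 2.46, 1.84 and 1.51 TPM on day 0, 3.10, 3.20 and 2.99 TPM on day 4, 5.70 and 6.365 TPM on day 6, and 5.89, 6.42 and 6.36 TPM on day 8. ΔK9.1 held 3.18, 3.46 and 2.84 TPM, then 2.5, 2.23 and 2.38 TPM, 5.38 and 3.15 TPM, and 7.96, 6.32 and 7.04 TPM. ΔK9.2 held 1.79, 2.32 and 1.65 TPM, then 3.37, 2.93 and 2.90 TPM, 4.37 and 4.67 TPM, and 6.79, 7.79 and 8.76 TPM. ΔK9.1 was above both other lines on day 0 and below both on day 4, on day 6 all 4 clone libraries lay below the 2 of E14Tg2a, and on day 8 ΔK9.1 overlapped E14Tg2a while ΔK9.2 lay above it. From day 0 to day 8 the rise was 1.31 in E14Tg2a (SE 0.15, adjusted p = 5.31e-08) and 1.59 in ΔK9.2 (SE 0.15, adjusted p = 3.34e-09), and in ΔK9.1 it was 0.96 (adjusted p = 8.86e-06), under the required change. In ΔK9.1 it was above 1 with a pseudocount of 0.1 (1.14), without replicate 2 of day 0 (1.01) and without replicate 2 of day 8 (1.03), so this is no separation of the lines. The day 6 difference of -0.40 between clones and E14Tg2a (SE 0.16, adjusted p = 0.175) and the day 0 difference of ΔK9.1 in the fit of 9 libraries (0.51, SE 0.18, adjusted p = 0.0826) did not pass. The latter had an adjusted p of 0.0362 with the replicate block and of 0.0281 in the fit of 33 libraries, and ΔK9.2 stood at -0.0043 in the fit of 9 libraries.

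By day 8 *Nanog*, *Gdf3* and *Apobec1* had fallen in every line and *Foxj2* was called higher in E14Tg2a and ΔK9.2, while *Slc2a3* was called in none (E14Tg2a 0.60, adjusted p = 0.00738, ΔK9.1 0.31, adjusted p = 0.173, ΔK9.2 0.61, adjusted p = 0.00799). In E14Tg2a, 2 of the 6 genes were called between day 0 and day 4 (7.74% of all genes), with *Dppa3* up and *Apobec1* down. By day 6 there were 4 (17.6%), with *Nanog*, *Gdf3* and *Apobec1* down and *Foxj2* up. By day 8 there were 5 (26.9%), all but *Slc2a3*. The fifth, *Dppa3* (-1.07, adjusted p = 0.018), was not called without replicate 1 of day 0 (-0.81, adjusted p = 0.104) or replicate 1 (-0.97, adjusted p = 0.0592) or 3 of day 8 (-0.96, adjusted p = 0.0643). In ΔK9.1 the counts were 2 by day 4 (5.39%), *Nanog* and *Apobec1*, and 3 both by day 6 (12.8%) and by day 8 (20.9%), *Nanog*, *Gdf3* and *Apobec1*. In ΔK9.2 they were 3 by day 4 (7.62%) and 3 by day 6 (17.5%), the same 3 declining genes, and 4 by day 8 (22.2%), with *Foxj2* added. *Dppa3* was -0.64 in ΔK9.1 by day 8 (adjusted p = 0.17), but -1.09 without replicate 3 of that day (adjusted p = 0.0211). In ΔK9.2 it was -0.94 (adjusted p = 0.0406), but -1.42 without replicate 1 of day 0 (adjusted p = 0.00351) and -1.31 without replicate 3 of day 8 (adjusted p = 0.00969).

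Apart from *Apobec1* (-1.39, -1.52 and -1.38 in E14Tg2a, ΔK9.1 and ΔK9.2), the calls of day 4 were close to the required change. *Nanog* was called in ΔK9.1 at -1.22 (adjusted p = 0.00144) and in ΔK9.2 at -1.01 (adjusted p = 0.00513), but not in E14Tg2a at -0.83 (adjusted p = 0.0228). *Gdf3* in E14Tg2a was -0.98 with an adjusted p of 0.00326. Between days 0 and 4 the median of all genes moved by -0.07, -0.21 and -0.16 (E14Tg2a, ΔK9.1, ΔK9.2). After rescaling of the libraries by their median ratio, *Nanog* was -0.95 in ΔK9.1 (adjusted p = 0.0221) and -0.82 in ΔK9.2 (adjusted p = 0.0358), and *Gdf3* in ΔK9.2 was -0.96 (adjusted p = 0.00501), all under 1, so that only *Apobec1* was still called in either clone on day 4. Without ΔK9.2 replicate 2 of day 0 or replicate 3 of day 4 *Nanog* was -0.99 and -0.94 in that line.

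**Figure D3:**
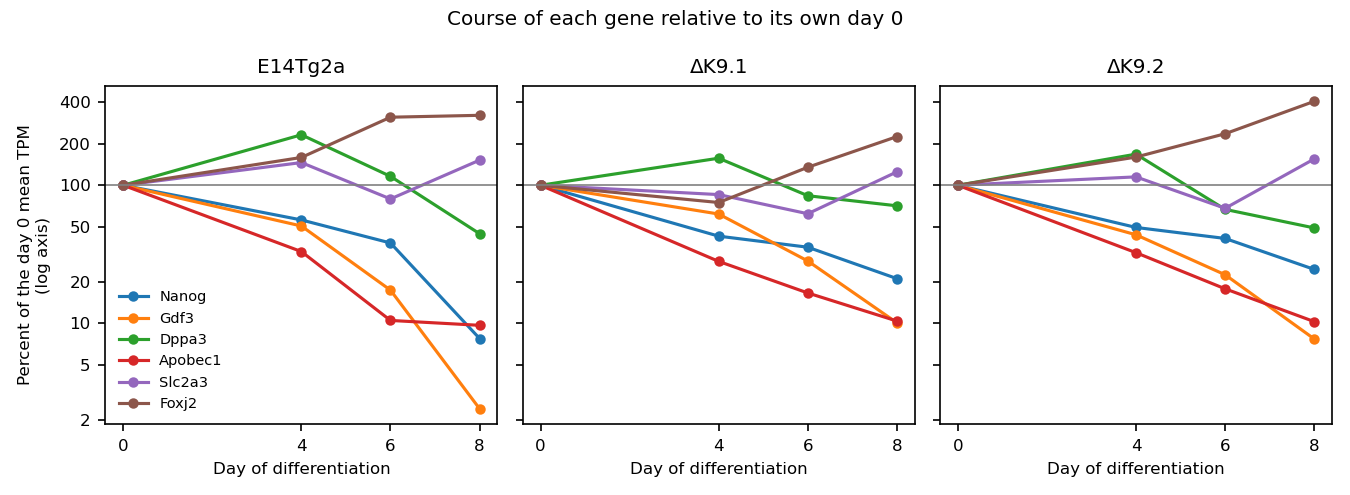
Group mean TPM of each gene as a percentage of its own day 0 mean (vertical log axis) against the day of differentiation, one panel per line, with a grey line at the day 0 level. On day 8 *Nanog* is at 7.77%, 21.1% and 24.6% (E14Tg2a, ΔK9.1, ΔK9.2), *Gdf3* is at 2.41%, 10.1% and 7.72%, and *Apobec1* at 9.68%, 10.4% and 10.3%.

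The steps between consecutive sampling days were also compared. They rest on 2 libraries per line on day 6, and leaving out a single library changed most of their counts. From day 4 to day 6, 2 of the 6 genes were called in E14Tg2a (9.33% of all genes), *Gdf3* at -1.40 and *Apobec1* at -1.14, the latter lost without replicate 2 of day 6 (adjusted p = 0.0583). There was 1 in ΔK9.1 (5.36%), *Gdf3* at -1.07, lost without replicate 2 of day 6 (-0.93, adjusted p = 0.222), a fit that called 39 genes in all. There was 1 in ΔK9.2 (9.9%), *Dppa3* at -1.26, lost without replicate 1 or 2 of day 4 or either library of day 6 (adjusted p from 0.0748 to 0.179). From day 6 to day 8, 3 were called in E14Tg2a (9.26%), *Nanog* at -2.28, *Gdf3* at -2.10 and *Dppa3* at -1.33, of which *Dppa3* was lost without either library of day 6 or replicate 1 or 3 of day 8 (adjusted p from 0.0555 to 0.131). There was 1 in ΔK9.1 (6.51%), *Gdf3* at -1.35, lost without replicate 3 of day 6 (-1.21, adjusted p = 0.0623). There were 2 in ΔK9.2 (5.21%), *Gdf3* at -1.28 and *Slc2a3* at 1.18, both lost without replicate 2 of day 6 (-0.97 and 0.92, adjusted p = 0.124 and 0.06). In that last step *Nanog* was at -0.95 in ΔK9.1 (SE 0.30, adjusted p = 0.0322), called at -1.47 without replicate 3 of day 8 (adjusted p = 3.17e-05) and at -1.06 after rescaling (adjusted p = 0.0257), and at -0.78 in ΔK9.2 (SE 0.30, adjusted p = 0.0816). The test of the difference itself, between the clones' step and that of E14Tg2a, gave 1.41 for *Nanog* (SE 0.37, adjusted p = 0.0807), and 0 of the 6 genes were called, as were 0.392% of all genes. The *Nanog* difference was called in 5 of the fits that left out a library. These left out E14Tg2a replicate 1 (1.61, adjusted p = 0.0302), ΔK9.1 replicate 2 (1.61, adjusted p = 0.00796), ΔK9.1 replicate 3 (1.15, adjusted p = 0.0268) or ΔK9.2 replicate 2 (1.55, adjusted p = 0.0411) of day 8, or ΔK9.1 replicate 2 of day 6 (1.51, adjusted p = 0.0473).

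Measured from day 0, the courses of the clones and of E14Tg2a differed for 0 of the 6 genes on day 4 (0.0184% of all genes), 0 on day 6 (0.306%) and 2 on day 8 (6.3%). These were *Nanog*, with a fall smaller by 1.41 in the clones (SE 0.33, adjusted p = 0.0125), and *Gdf3*, with a fall smaller by 1.26 (SE 0.29, adjusted p = 0.0124). Library by library against the day 0 library of the same replicate number, *Nanog* had kept 5.98% to 10.6% in E14Tg2a, 10.7% to 36.3% in ΔK9.1 and 15.9% to 29.6% in ΔK9.2. For *Gdf3* the corresponding ranges were 1.44% to 3.3%, 5.89% to 16.2% and 6.55% to 9.27%. The ranges of either clone did not overlap that of E14Tg2a for either gene, though those of *Nanog* in E14Tg2a and ΔK9.1 almost met. Without E14Tg2a replicate 2 of day 8 the *Nanog* value was 1.34 with an adjusted p of 0.0565. The other 4 genes had values between -0.14 (*Slc2a3*) and 0.28 (*Dppa3*), with adjusted p from 0.768 to 0.945.

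Markers of undifferentiated cells moved with these day 8 results. The summed level of the 6 ESC markers on day 8 was 138 to 294 TPM in E14Tg2a against 308 to 750 in ΔK9.1 and 356 to 981 in ΔK9.2, and none of the 6 was at 0. Of the 6 markers 5, all but *Klf4*, were called higher in the clones, on a day when 4.24% of all genes were called, 135 of them higher and 558 lower. ΔK9.1 replicate 3, highest for *Nanog*, *Gdf3* and *Dppa3*, had the highest sum of its line. The highest sum of the day, 981 TPM, was that of ΔK9.2 replicate 1, which had the lowest *Gdf3* (2.53 TPM) and *Dppa3* (10.5 TPM) of its line and less *Nanog* than replicate 3 (118.5 against 126 TPM). Set against that sum within each library, *Nanog* amounted to 11.8%, 16.2% and 15.9% of it in E14Tg2a on day 8, 17.2%, 16% and 23.5% in ΔK9.1, and 12.1%, 19.6% and 24.2% in ΔK9.2, so that both clones overlapped E14Tg2a. The mean log2 ratio was higher in the clones by 0.33 (two-sided exact permutation test over 6 and 3 libraries, p = 0.179, adjusted over 8 such tests p = 0.686). Paired by replicate number the clones stood higher in 3 of 3 sets, by 0.13 to 0.59 (exact permutation within sets, p = 0.148, adjusted p = 0.556). On day 0 the sums were 3480 to 3970 TPM in E14Tg2a and 3140 to 3710 TPM in the clones. *Nanog* then amounted to 9.26% to 9.38% of the sum in E14Tg2a, 13.9%, 14.7% and 14.9% in ΔK9.1, and 11.1%, 12.1% and 11.7% in ΔK9.2. No line overlapped another, so these values also cluster by clone. The exact tests treat cultures of 1 line and 2 clones as exchangeable, and their p does not measure the spread between clones. The mean log2 ratio of day 0 was higher in the clones by 0.47 (same exact test, p = 0.0119, the smallest that 6 and 3 libraries allow, adjusted p = 0.0952). Paired by replicate number it was higher in 3 of 3 sets, by 0.41 to 0.51 (exact permutation within sets, p = 0.037, the smallest that 3 sets allow, adjusted p = 0.296). The days between differed: on day 4 the clones stood higher in 2 of 3 sets (mean 0.09) and on day 6 in 0 of 2 (mean -0.12). On day 6 the sums were 1180 to 1360 TPM in E14Tg2a, 1600 to 1800 in ΔK9.1 and 1740 to 2040 in ΔK9.2. For *Gdf3* the share of the sum in the clones overlapped that in E14Tg2a on all 4 days, except that ΔK9.2 lay below E14Tg2a on day 4, and the exact p was between 0.56 and 0.702.

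Other marker lists moved too on day 8, again beside 4.24% of all genes called, and their part in the levels of the 6 genes was not tested. The 10 markers of primitive and visceral endoderm summed to 367 to 509 TPM in E14Tg2a against 34.9 to 147 in ΔK9.1 and 56.2 to 75.9 in ΔK9.2. Of the 10, 7 were called lower in the clones, and none was at 0 in all libraries of a group. The 4 blood markers summed to 986 to 4490 TPM, 34 to 1790 TPM and 10.9 to 214 TPM, with 3 of 4 called lower. Of the 6 mesoderm markers 3 were called higher (*T*, *Mesp1* and *Eomes*) and 3 were not called. The sum of the 6 went the other way, at 633 to 692, 150 to 539 and 298 to 633 TPM, with means of 654, 372 and 506 TPM (E14Tg2a, ΔK9.1, ΔK9.2). Of the 4 neural ectoderm, 3 listed trophoblast, 4 germ-line and 3 listed two-cell-like markers 0 were called.

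The other genes of the pathways to which the 6 belong were counted in the same day 8 comparison, beside the 4.24% of all genes called. Of the 16 listed genes of Nodal signalling, to which *Gdf3* belongs, 4 were higher in the clones and 1 lower, with a median difference of 0.14 against 0.00 for all genes. The higher ones were *Lefty1* (1.81, adjusted p = 3.17e-05) and *Lefty2* (1.63, adjusted p = 7.5e-05), secreted inhibitors of Nodal, the co-receptor gene *Tdgf1* (1.51, adjusted p = 0.00439) and *Gdf3* itself. *Lefty1* ranged from 1.79 to 4.93 TPM in E14Tg2a, from 8.52 to 22.1 TPM in ΔK9.1 and from 7.32 to 15.8 TPM in ΔK9.2, so that neither clone overlapped E14Tg2a, and had started from 51.3 to 76.7, 71.7 to 81.5 and 45.2 to 80.3 TPM on day 0. *Cfc1*, another co-receptor gene, was the lower one (-1.04, adjusted p = 0.0323), and its values were 33.4 to 189 TPM in E14Tg2a against 29.6 to 32.4 in ΔK9.1 and 24.1 to 57.4 in ΔK9.2, the latter overlapping E14Tg2a.

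Of 21 listed genes of the pluripotency and germ-line network of *Nanog* and *Dppa3*, 6 were higher and 0 lower in the clones on day 8, with a median difference of 0.64. They were *Pou5f1* (1.52, adjusted p = 0.000411), *Sox2* (1.41, adjusted p = 0.0012), *Zfp42* (1.36, adjusted p = 0.000773), *Klf2* (1.29, adjusted p = 0.00215), *Esrrb* and *Nr0b1*. *Pou5f1*, *Sox2*, *Zfp42* and *Esrrb* were already counted among the ESC markers, as was *Tdgf1* of the Nodal list, so the counts of these lists overlap. *Pou5f1*, the gene of the octamer-binding factor OCT4, was at 91.0 to 215 TPM in E14Tg2a against 198 to 501 in ΔK9.1 and 256 to 789 in ΔK9.2, with overlap between E14Tg2a and ΔK9.1. *Sox2* was at 19.0 to 22.7, 38.9 to 130 and 35.6 to 98.0 TPM and did not overlap between the clones and E14Tg2a. The *Nanog* difference of 1.79 stood above each of these 6. On day 0, 0 of the 21 genes were called, near the background of 0.386% of all genes, and the median difference of the list and of all genes was 0.05 alike.

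Of the 6 listed genes of APOBEC editing, 1 was lower in the clones on day 8 and 0 were higher. It was *Apob* (-3.57, SE 0.46, adjusted p = 1.28e-05), the mRNA target of *Apobec1* and a product of visceral endoderm, with 9.76 to 22.0 TPM in E14Tg2a against 0.161 to 0.990 in ΔK9.1 and 0.167 to 0.466 in ΔK9.2. Of the 7 listed sugar transporters 0 were called. *Slc2a1*, the gene of GLUT1, came closest, at -0.98 (SE 0.17, adjusted p = 0.000241), with 595 to 684 TPM in E14Tg2a against 309.5 to 325 in ΔK9.1 and 299 to 387 in ΔK9.2, and its clone and E14Tg2a libraries did not overlap, whereas those of *Slc2a3* did. Of the 3 FOXJ genes 0 were called, and *Foxj3*, the most abundant, stood at -0.10 (adjusted p = 0.675) beside 0.22 for *Foxj2* (adjusted p = 0.26).

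Within 1 Mb of *Nanog* 17 of 65 annotated genes were listed, the 6 and 11 others. The 11 were taken by position, but the deposited data list only genes whose mean reached 1 TPM in some group. Of the 11 others, 0 were called on any of the 4 days in the comparison of clones and E14Tg2a, beside 0.386%, 0.796%, 1.62% and 4.24% of all genes on days 0, 4, 6 and 8. At these shares a count of 0 among 11 is near the background, and their median difference on day 8 was -0.006, beside -0.004 for all genes. *Gm10224*, the nearest listed gene upstream, a processed pseudogene that starts 8.5 kb from the *Nanog* start, was at 0 to 0.764 TPM in E14Tg2a and at 0 to 0.173 TPM in the clones on day 8. Its mean reached 1 TPM only in E14Tg2a on day 0 (1.698 TPM). *Gm5112*, the nearest other listed gene downstream beside *Slc2a3*, at 96.5 kb, was at 0.369 to 0.940 TPM in E14Tg2a and 0.311 to 1.37 TPM in the clones (0.15, adjusted p = 0.597). The mean of *Gm5112* reached 1 TPM only in ΔK9.2 on day 8 (1.006 TPM), so it was listed through a group of this same comparison. *Phc1*, the gene of a Polycomb subunit that starts 366.9 kb upstream, came closest to a call (0.76, SE 0.19, adjusted p = 0.00578), with 24.3 to 34.7 TPM in E14Tg2a against 42.9 to 76.5 in ΔK9.1 and 38.4 to 69.4 in ΔK9.2, and was named after its value was seen. Between *Dppa3* and *Phc1* lie *Gdf3*, higher in the clones, and *Apobec1*, *Mfap5*, *Gm8430*, *Rimklb* and *1700063H04Rik*, not called.

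**Figure D4:**
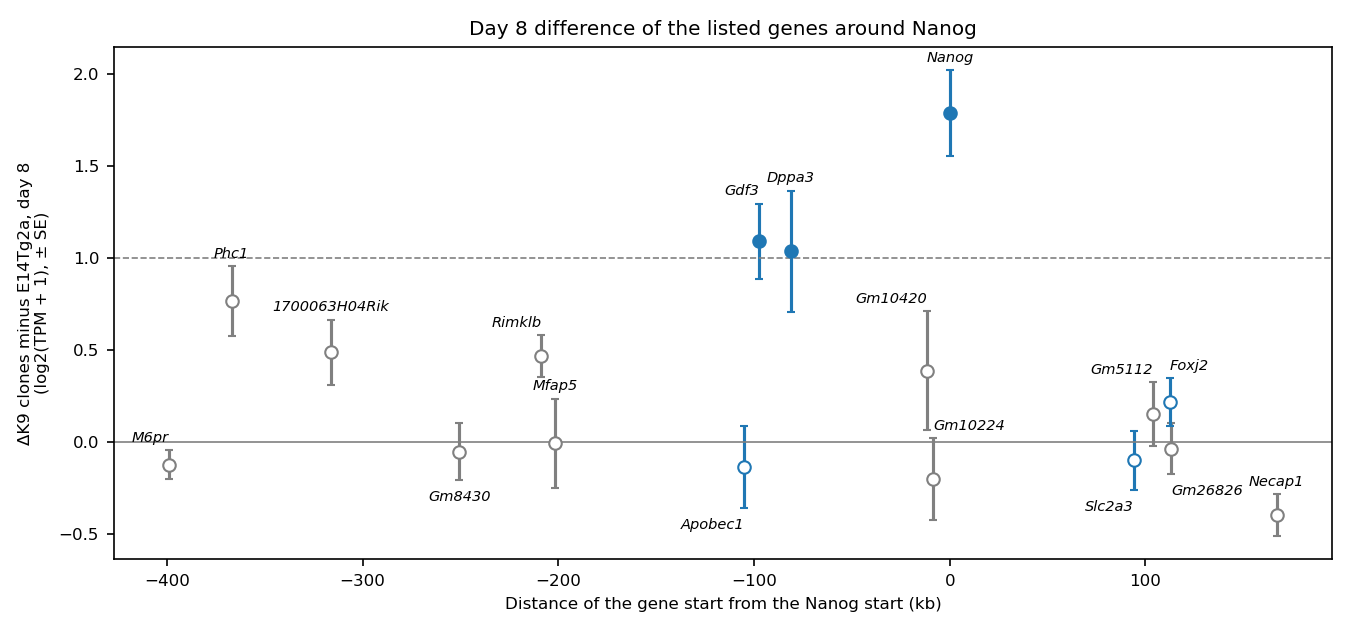
Day 8 difference between the ΔK9 clones and E14Tg2a (log2(TPM + 1), vertical axis) of the 17 listed genes within 1 Mb of *Nanog* against the distance of the gene start from the *Nanog* start in kb (horizontal axis, upstream to the left); points are limma estimates with ± 1 SE, the 6 genes in blue and the 11 others in grey, filled where called. The 3 filled points, *Gdf3*, *Dppa3* and *Nanog*, include *Dppa3* and *Nanog*, between which *Gm10420* (0.39) and *Gm10224* (-0.20) lie, and *Slc2a3* and *Apobec1* lie near 0.

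Likeness to *Nanog* was described by Pearson's r of log2(TPM + 1) over the 12 group means, points that share lines and days. *Gdf3* was the nearest of the neighbours, with r = 0.95 and rank 68 of 16335 genes, followed by *Apobec1* with r = 0.82 (rank 1218) and *Dppa3* with r = 0.65 (rank 3185). *Slc2a3* had r = -0.40 and *Foxj2* r = -0.78. The 5 genes most like *Nanog* were elsewhere in the genome: *Ccdc88c* (r = 0.99), *Nol8* (0.99), *Fkbp5* (0.98), *Sall1* (0.98) and *Tgif1* (0.98). On linear TPM *Apobec1* came to 0.92 and *Dppa3* to 0.31, and the reason was not tested. Of the 5, *Sall1*, the gene of a zinc finger factor of ESCs, was called on day 8 (1.01, adjusted p = 1.15e-05), as were 4.24% of all genes. It was at 10.9 to 14.1 TPM in E14Tg2a and 20.5 to 27.5 TPM in the clones. Because the 5 were picked by likeness over groups that include those of day 8, this call is a description and no separate evidence.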

How the data were processed

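RNA of E14Tg2a, ΔK9.1 and ΔK9.2 was sequenced on days 0, 4, 6 and 8, in 33 libraries. Levels were estimated by the authors with RSEM from STAR alignments (mm10, stranded, paired ends) and deposited as TPM, normalised within each library. The table also holds log2 fold changes and adjusted p-values that the authors computed with DESeq2 for their own comparisons, which were not used. Versions and the annotation are not given in the sources used here. The TPM listed summed to 994284 to 998266 per library, every listed gene reached a mean of 1 TPM in some group, and the study's methods describe the removal of outlying libraries.

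Differences were tested with limma 3.58.1 (eBayes with a trend) in R 4.3.3 on log2(TPM + 1), over 16336 genes and 12 groups. Day 0 was also fitted alone, on 9 libraries and the 14504 genes whose mean reached 1 TPM in at least one line. The 6 genes, the gene lists and the naming rules were chosen with earlier results of these data known. Named were the 6 genes, the 5 most like *Nanog*, up to 4 called genes per list by size of the day 8 difference, otherwise its most abundant genes, and the nearest listed genes on either side; *Cfc1*, *Esrrb*, *Nr0b1* and *Phc1* were named after their values were seen. The tests of the step from day 6 to day 8, of single clones' courses, and of *Nanog* and *Gdf3* relative to the ESC markers (unpaired and within replicate numbers) were also added then. Positions came from GENCODE M21 and promoters from RefSeq. Figures were drawn with Python 3.11.15 and matplotlib 3.10.9. The fits were tested on simulated data.

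The study's supplement describes 3 independent assays run in parallel, which pairs libraries by number. Between lines on a given day, deviations from the group means correlated with a median r of 0.222 for 33 pairs with a shared number (31 exceeded 0.1, the lowest was -0.0129) and of -0.127 for 60 pairs with different numbers. Parallel assays of one line measure the spread between cultures of that line. The alternatives were a pseudocount of 0.1, a minimum mean of 5 TPM, rescaling, a replicate block, single-day fits, linear TPM for likeness, and each library left out.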

Additional observations from a re-analysis of the deposited data

Results flagged for a closer look

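The courses from day 0 to day 8 differed between lines for several of these genes by a test of the difference itself (limma, adjusted over all genes). For *Nanog* the clones' fall was smaller than that of E14Tg2a by 1.41 (SE 0.33, adjusted p = 0.0125), and in ΔK9.2 alone by 1.61 (SE 0.38, adjusted p = 0.0299), while ΔK9.1 alone gave 1.22 (adjusted p = 0.063). The value of ΔK9.2 alone had an adjusted p from 0.0508 to 0.0992 without E14Tg2a replicate 2 or 3 of day 0, E14Tg2a replicate 2 of day 8, any ΔK9.2 library of day 0, or ΔK9.2 replicate 1 or 3 of day 8, and that of ΔK9.1 alone passed without E14Tg2a replicate 1 (adjusted p = 0.0314) or ΔK9.1 replicate 2 of day 8 (adjusted p = 0.00554). For *Gdf3* it was smaller by 1.26 in both clones (SE 0.29, adjusted p = 0.0124) and by 1.39 in ΔK9.1 alone (SE 0.33, adjusted p = 0.0202), while ΔK9.2 alone gave 1.13 (adjusted p = 0.0666, and 0.0389 with the replicate block). The value of ΔK9.1 alone did not pass without E14Tg2a replicate 2 (adjusted p = 0.0553) or 3 of day 0 (adjusted p = 0.0587). No difference between the courses of ΔK9.1 and ΔK9.2 passed for either gene on day 8 (*Nanog* 0.39, adjusted p = 0.872, and *Gdf3* -0.25, adjusted p = 0.922).

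Among the other listed genes within 1 Mb, *Phc1* fell less in the clones by 0.99 (SE 0.27, adjusted p = 0.0284), and by 1.12 in ΔK9.1 alone (SE 0.31, adjusted p = 0.0379), while ΔK9.2 alone gave 0.86 (adjusted p = 0.139). *1700063H04Rik*, a long intergenic RNA gene that ends 314.8 kb upstream of *Nanog*, differed by 1.10 in ΔK9.1 alone (SE 0.29, adjusted p = 0.0315), where it stood at 0.527 to 1.11 TPM on day 0 and 0.2201 to 0.6337 TPM on day 8, against 1.63 to 1.88 TPM and 0 to 0.0546 TPM in E14Tg2a. In ΔK9.2 alone the value was 0.33 (adjusted p = 0.597), and in both clones together 0.72 (adjusted p = 0.0858).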

How the results depend on the processing

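The results were recomputed under a pseudocount of 0.1, a minimum mean of 5 TPM, rescaling, the replicate block, single-day fits (differences between lines) and linear TPM (likeness to *Nanog*), and with each of 33 libraries left out. On day 6 leaving out a library leaves 1 sample in a line, which is assumed to vary like the other groups. Over 206 results and all settings, 6896 values kept direction and side of the threshold, 48 fell below it, 47 passed it, 113 counts or values moved and 37 changed sign.

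With a pseudocount of 0.1 the genes called between clones and E14Tg2a numbered 106 (day 0), 196 (day 4) and 1155 (day 8), and those whose courses differed were 1 on day 4, 20 on day 6 and 16 from day 6 to day 8. It called 2000, 1503 and 1968 genes between days 0 and 4 in E14Tg2a, ΔK9.1 and ΔK9.2, 1385 and 2507 between days 4 and 6 in ΔK9.1 and ΔK9.2, and also *Gdf3* in E14Tg2a on day 4 (-1.01), *Foxj2* in ΔK9.2 on day 6 (1.21) and in ΔK9.1 on day 8 (1.14), and *Gdf3* in ΔK9.2 against E14Tg2a on day 8 (1.503). The *Nanog* course to day 6 became 0.0011 and that of *Apobec1* to day 8 -0.1109. With a minimum mean of 5 TPM the courses differed for 1 gene on day 4, 14 on day 6 and 19 from day 6 to day 8, and 20 genes met the day 0 rule. Rescaling by the median ratio gave 17 genes by the day 0 rule, 1 of the 6 genes called by day 4 in either clone, 2 from day 4 to day 6 in ΔK9.2 and 2 from day 6 to day 8 in ΔK9.1, 0.055 for *Slc2a3* in ΔK9.1 by day 4, -0.0231 for *Slc2a3* on day 0, and courses of 0.0613 for *Apobec1* on day 4, 0.1035 for *Nanog* on day 6 and 0.0287 for *Foxj2* on day 8. With the replicate block, courses differed for 17 genes on day 4, 94 on day 6, 1639 on day 8 and 127 from day 6 to day 8, and 145 genes met the day 0 rule, with 1 of the 6, *Nanog*, among them; of the values of the 6 genes run with it, it changed no other call than the single-clone values of day 0 and the *Gdf3* course of ΔK9.2 given above. Fits of a single day called 12 (day 4), 5 (day 6) and 197 genes (day 8), 0 of the 6 among them, with *Nanog* at 1.7876 on day 8 (adjusted p = 0.0575). The cause was not tested for any of these.

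Leaving out single libraries, the genes called between clones and E14Tg2a ran from 47 to 132 on day 0, 38 to 181 on day 4, 58 to 531 on day 6 and 372 to 953 on day 8, and those meeting the day 0 rule from 1 to 135. Courses differed for 1 to 58 genes on day 4, 1 to 198 on day 6, 250 to 1611 on day 8 and 9 to 249 from day 6 to day 8. In the steps between days, 872 to 1647 (E14Tg2a) and 39 to 1495 genes (ΔK9.1) were called from day 4 to day 6, and 232 to 1643 (ΔK9.1) and 238 to 1261 (ΔK9.2) from day 6 to day 8. Of the 6 genes, 1 to 3 were called by day 4 in E14Tg2a, 1 to 3, 0 to 1 and 0 to 2 from day 4 to day 6 in E14Tg2a, ΔK9.1 and ΔK9.2, and 1 to 2 and 0 to 2 from day 6 to day 8 in ΔK9.1 and ΔK9.2. Between the clones and E14Tg2a 1 to 3 of the 6 were called on day 8, and courses differed for 0 to 1 on day 6 (*Foxj2*, without ΔK9.1 replicate 2), 1 to 2 on day 8 and 0 to 2 from day 6 to day 8. *Nanog* on day 8 ran from 1.53 to 1.98, and its course to day 8 from 1.15 to 1.61. Values that changed sign ran from -0.1012 to 0.1006 (*Nanog* course, day 6), -0.0635 to 0.2937 and -0.2323 to 0.1249 (*Gdf3* course and difference, day 4), -0.1178 to 0.195 (*Apobec1* course, day 8), -0.1589 to 0.0723 (*Foxj2* course, day 8), -0.0485 to 0.1762 and -0.2315 to 0.0356 (*Slc2a3* difference, days 0 and 8), -0.0356 to 0.3453 (*Slc2a3*, day 6 to day 8), -0.5406 to 0.0024 and -2e-04 to 0.6203 (*Dppa3* and *Foxj2* in ΔK9.1 by day 6), and, in ΔK9.2 on day 0 alone, -0.1484 to 0.0763 (*Slc2a3*) and -0.1109 to 0.1203 (*Foxj2*).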
